A study of Mus musculus with 2 samples.

Results

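Low-cycling germ nuclei were the 450 nuclei of an E14.5 mouse testis that carried much RNA of germ cell genes and little RNA of genes of dividing cells. They were chosen by measured RNA. Barcodes were kept with 2000 to 50000 UMIs (unique molecular identifiers, each standing for 1 captured RNA molecule), under 10% mitochondrial UMIs and over 500 transposase cuts at peaks, which left 7492 of 9833 deposited barcodes. These were ranked by the share of UMIs in 9 germ genes (*Ddx4*, *Dazl*, *Dnd1*, *Mael*, *Sycp1*, *Tex14*, *Ankrd31*, *Morc1* and *Stk31*), the top 700 were taken, and of these the 450 with the lowest share of UMIs in 7 cell cycle genes (*Mki67*, *Top2a*, *Aspm*, *Knl1*, *Neil3*, *Ckap2l* and *Cenpf*) are described here. They made up 6.01% of the kept barcodes. The remaining 250 of the 700 are called cycling germ nuclei, and the 6792 barcodes beyond the 700 are called outside barcodes.

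The testes came from embryos carrying *Nr5a1-cre* and *Rosa-tdTomato* (no floxed *Nr2f2* allele is named for them), and whole testes were frozen before nuclei were isolated. *Nr5a1* drives the Cre in somatic cells of the gonad, and how many embryos were pooled is not stated in any source read for this work. The 10x multiome assay gave 1 RNA library and 1 ATAC library from the same nuclei, and all 9833 barcodes of the RNA table also held ATAC fragments. With 1 library of each kind there was no replicate and no test between conditions, nuclei are not replicates, and every 95% interval below covers counting error only. RNA values compare sets that RNA defined and are therefore descriptions, whereas the ATAC signal had no part in the choice beyond the minimum of cuts.

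In the fetal testis, germ cells stop dividing and enter a prolonged mitotic arrest, during which they lose the expression of pluripotency genes, take up the male fate and re-establish DNA methylation. The piRNA pathway, in which PIWI proteins carry small RNAs that recognise retrotransposons, becomes active in this period and guides methylation to those elements. Germ cell genes of this kind often have promoters rich in CpG that are methylated and silent in somatic cells.

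The label was checked against the markers *Ddx4*, *Dazl*, *Dnd1*, *Mael*, *Sycp1*, *Tex14* and *Morc1*, all of which also chose the nuclei. Values are given as CPM, the UMIs of a gene per 1000000 UMIs of the set. *Ddx4*, a germ cell RNA helicase (ENSMUSG00000021758; GRCm38 chromosome 13, 112598333 to 112652475), stood at 560 CPM in low-cycling germ nuclei (95% Poisson interval 543 to 577), at 624 CPM in cycling germ nuclei and at 48.3 CPM in the outside barcodes. After each nucleus was thinned to 2000 UMIs, 66.2% of low-cycling germ nuclei held a *Ddx4* UMI (exact binomial interval 61.6% to 70.6%), against 3.75% of outside barcodes. *Sycp1*, a component of the synaptonemal complex, was found in 92.2% and 4.79%, and *Dazl*, an RNA-binding protein, in 80.0% and 5.76%. *Sycp1* is among the genes that chose the nuclei, and the shares outside are the background. They include barcodes with germ RNA that were left out, many of them called doublets.

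The cut lay inside a continuous range at both steps. The last nucleus taken into the 700 had 0.51196% of its UMIs in the germ genes and the first left out had 0.51184%. The share stayed at 0.298% at rank 1000 and reached 0.0922% at rank 1100, so the outside barcodes hold further germ RNA. Of them, 330 had more than 50% of the share of the last nucleus inside. The 9 germ genes held 34068 UMIs outside (503 CPM), and 8075 UMIs (185 CPM) without the barcodes called doublets, described below. Most of this RNA thus lay in called doublets, and how many of the outside barcodes are single germ nuclei was not tested. In the 5992 outside barcodes with the lowest germ share, *Ddx4* stood at 4.40 CPM. The last member and the first cycling germ nucleus had 0.0839% and 0.0841% of their UMIs in the cell cycle genes, on 15 and 13 UMIs. No member was at 0 UMIs for these genes. Their median of 0.0504% was above that of the outside barcodes (0.0251%), so "low-cycling" is a rank among germ nuclei and not an absence of such RNA.

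**Figure D1:**
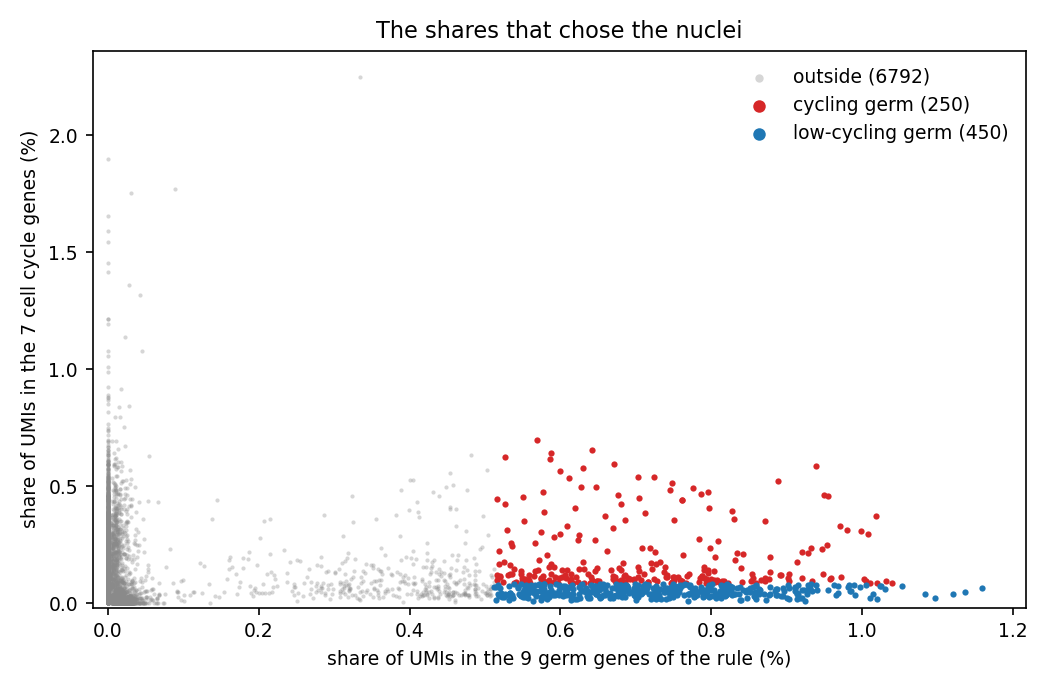
Share of UMIs in the 9 germ genes (horizontal axis, %) against the share in the 7 cell cycle genes (vertical axis, %) for 450 low-cycling germ nuclei, 250 cycling germ nuclei and 6792 outside barcodes, 1 point each. Both cuts run through continuous clouds of points, at 0.512% on the horizontal axis and 0.0839% on the vertical axis.

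Low-cycling germ nuclei were deep, with a median of 15409 UMIs against 14256 in cycling germ nuclei and 7804 outside, and of 5926, 5923 and 4456 ATAC fragments. Summed, the 3 sets held 7359237, 3980220 and 67753084 UMIs and 2840567, 1658177 and 36085728 fragments. RNA of other cell types was present in the germ nuclei. The 6 Leydig markers summed to 216 CPM in low-cycling and 207 CPM in cycling germ nuclei against 997 CPM outside, the 7 Sertoli markers to 52.6, 50.5 and 163 CPM, and the 5 interstitial markers to 150, 106 and 1102 CPM. The 5 erythroid markers summed to 146.8, 280.4 and 218 CPM, above the outside level in the cycling set, and without the Scrublet barcodes to 71.3, 69.9 and 281 CPM. The surface epithelium marker *Krt19* was at 0 in low-cycling germ nuclei, and the 4 immune markers together had 16 UMIs there. Scrublet, a caller of doublets (droplets with more than 1 nucleus), marked 57 of 450 members (12.7%, exact interval 9.74% to 16.1%), 21 of 250 cycling germ nuclei (8.40%) and 1212 outside barcodes (17.8%). These were kept, and the marker sums and some list medians, gene counts and single-gene values were computed again without them.

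Promoters are shown first, because open chromatin there is the measure that did not choose the nuclei. The 150 bases before the RefSeq start (GRCm38.p6, 5′ to 3′ on the strand of the gene) are printed for the 8 genes whose promoters were the most open in low-cycling germ nuclei relative to the outside barcodes, among the 22 germ genes of the rule and piRNA genes with an entry. Some promoters of other genes had higher ratios and are named with the results. Capitals mark CACGTG, the E-box bound by MYC/MAX-type factors, and TCCCGC on either strand (GCGGGA on the other strand), the motif of E2F-type factors.
*Sycp1* (chr3:102936101-102936250, minus strand): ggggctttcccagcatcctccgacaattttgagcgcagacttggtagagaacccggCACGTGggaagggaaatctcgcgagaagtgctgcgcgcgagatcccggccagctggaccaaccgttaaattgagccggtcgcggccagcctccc
*Stk31* (chr6:49395389-49395538, plus strand): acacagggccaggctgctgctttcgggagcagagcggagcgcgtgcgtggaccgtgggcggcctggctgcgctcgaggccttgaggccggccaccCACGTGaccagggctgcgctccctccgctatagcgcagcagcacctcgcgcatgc
*Ddx4* (chr13:112652311-112652460, minus strand): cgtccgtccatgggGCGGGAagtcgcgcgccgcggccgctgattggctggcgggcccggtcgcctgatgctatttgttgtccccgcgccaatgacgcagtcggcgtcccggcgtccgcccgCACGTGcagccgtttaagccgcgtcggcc
*Tdrd9* (chr12:111971409-111971558, plus strand): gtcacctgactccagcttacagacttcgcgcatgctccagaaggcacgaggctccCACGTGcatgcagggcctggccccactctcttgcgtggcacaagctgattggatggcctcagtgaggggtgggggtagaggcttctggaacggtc
*Fkbp6* (chr5:135350045-135350194, minus strand): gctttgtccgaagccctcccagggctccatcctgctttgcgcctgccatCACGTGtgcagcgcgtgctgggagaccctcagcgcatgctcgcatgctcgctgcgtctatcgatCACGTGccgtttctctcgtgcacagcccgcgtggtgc
*Asz1* (chr6:18109062-18109211, minus strand): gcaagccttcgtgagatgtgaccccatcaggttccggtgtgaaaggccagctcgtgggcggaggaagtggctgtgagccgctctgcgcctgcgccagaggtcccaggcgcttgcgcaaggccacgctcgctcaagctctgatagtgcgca
*Piwil4* (chr9:14740673-14740822, minus strand): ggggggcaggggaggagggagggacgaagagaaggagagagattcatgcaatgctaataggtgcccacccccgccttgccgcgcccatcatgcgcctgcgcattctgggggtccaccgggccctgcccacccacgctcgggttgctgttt
*Mov10l1* (chr15:88982844-88982993, plus strand): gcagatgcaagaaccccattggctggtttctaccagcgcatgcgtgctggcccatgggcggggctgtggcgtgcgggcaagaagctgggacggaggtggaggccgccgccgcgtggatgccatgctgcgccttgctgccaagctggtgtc

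An E-box began 94 bases before the start of *Sycp1*, 55 before *Stk31*, 29 before *Ddx4* and 95 before *Tdrd9*, and *Fkbp6* held a pair, at 101 and 37 bases. The window of *Ddx4* also held TCCCGC, 136 bases before the start. *Asz1*, *Piwil4* and *Mov10l1* held neither motif in this window. In windows of 300 bases (250 before to 50 after the start), CACGTG occurred in 4 of the 7 germ genes of the rule with an entry (57.1%; *Dnd1* and *Morc1* had none), in 5 of 15 piRNA genes (33.3%) and in 7.24% of all 27025 promoters. Among the 2383 promoters with an entry that were more than 1.5-fold more open in low-cycling germ nuclei, 9.02% held it, against 8.77% of all promoters measured. TCCCGC occurred in 4 of the same 7 genes, in 2 of 15 piRNA genes, in 20.02% of all promoters, in 27.95% of those measured and in 22.6% of those more open in low-cycling germ nuclei than outside. The germ genes of the rule had a median of 24 CpG per window, against 7 over all promoters and 15 over those measured. The median was 10 in the promoters more open in low-cycling germ nuclei than outside, and 22 and 23 in the S phase and G2M lists. A motif match is a description of the letters and does not show binding.

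Promoters of germ genes were open in low-cycling germ nuclei. Accessibility was counted as ATAC fragments with an end within 1 kb of the gene start, per 1000000 fragments of the set, and a promoter counts as higher or lower past 1.5-fold on the log2 scale of these values + 1. Over all 25651 promoters with at least 20 fragments, 14.55% were higher and 16.9% lower in low-cycling germ nuclei than in the outside barcodes. Of the 9 germ genes of the rule, 8 were higher and none lower. *Sycp1* had 47 fragments in low-cycling germ nuclei, 32 in cycling germ nuclei and 52 in the outside barcodes, a depth-scaled ratio of 11.5 over the outside barcodes (exact interval 7.57 to 17.4). *Stk31* gave 10.1 (6.62 to 15.4), *Ddx4* 9.53 (6.49 to 13.9), *Ankrd31* 9.17 (5.32 to 15.6) and *Mael*, a piRNA factor, 7.19 (4.83 to 10.6). *Dazl*, at 2.15 (1.71 to 2.68), and *Tex14*, a kinase-like protein of intercellular bridges, at 1.08 (0.825 to 1.404), stood lowest of the 9. The start of *Tex14* was already accessible outside, although its RNA was 13.2 times higher in low-cycling germ nuclei.

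The piRNA genes followed the same pattern. Of 20 measured, 18 were more open in low-cycling germ nuclei, none less, with a median log2 ratio of 2.03 against -0.05 over all promoters. *Asz1*, a mitochondrial piRNA factor, had 37, 16 and 33 fragments in low-cycling, cycling and outside nuclei and a ratio of 14.2 (8.67 to 23.5). *Piwil4* (MIWI2), the PIWI protein that enters the nucleus, had 30, 12 and 29 fragments and a ratio of 13.1 (7.62 to 22.7). *Tdrd9*, a helicase, reached 10.6 (5.97 to 18.6), *Fkbp6*, a cochaperone, 10.5 (6.85 to 16.04) and *Mov10l1*, a helicase of piRNA processing, 10.1 (6.39 to 15.7). *Tdrd7* stood at 0.998 (0.786 to 1.25), and *Tdrkh* at 1.48 (1.14 to 1.89), neither past 1.5-fold. The counts are small, so the order among the leading genes is within the intervals.

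**Figure D2:**
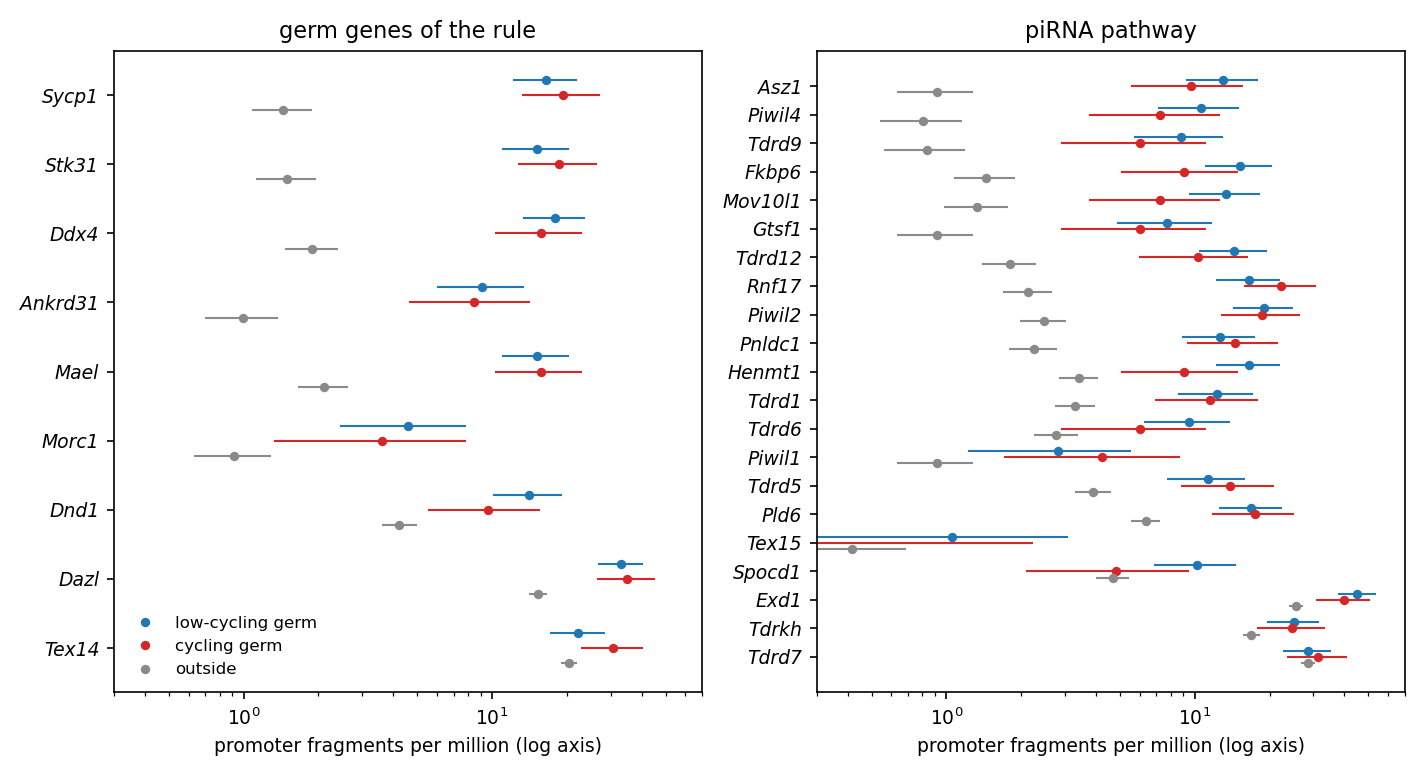
ATAC fragments within 1 kb of the gene start per 1000000 fragments of the set (horizontal log axis) for the 9 germ genes of the rule and 21 piRNA genes, as points with exact Poisson 95% intervals, for low-cycling germ nuclei, cycling germ nuclei and outside barcodes. The germ sets lie together above the outside barcodes for most genes, with *Tex14* (ratio 1.08) and *Tdrd7* (0.998) as exceptions, and the intervals of *Tex15* stop at the edge of the axis.

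Other lists differed in how far their promoters followed. Of 14 pluripotency promoters, 12 were more open in low-cycling germ nuclei and 1 less (median log2 ratio 1.42), among them *Tcl1* at 10.3 (5.49 to 18.96), *Dppa4* at 7.06 (3.49 to 13.7) and *Pou5f1* at 4.46 (2.54 to 7.53). *Lin28b*, an RNA-binding protein that blocks let-7, was the one below, at 0.489 on 5 fragments (0.156 to 1.17), although its RNA was 10.5 times higher than outside. Of 27 meiosis promoters, 19 were more open and 1 less, led by *Syce1*, another synaptonemal complex gene, at 17.6 (10.8 to 28.9), which was also the highest ratio among all 20379 promoters with at least 50 fragments. The other 4 leading promoters were *AU022751* on chromosome X (14.8), *Asz1*, *Topaz1*, a germ cell gene (14.2), and *Gm21863* (14.1), whose RNA was at 0 UMIs in all 3 sets. By contrast, none of 50 G2M promoters and 1 of 43 S phase promoters was more open, and none of the 10 DNA methylation promoters was. The 5 promoters that stood lowest had no fragment in low-cycling germ nuclei. They were those of the noncoding genes *Gm15941*, *1810073O08Rik*, *D530049I02Rik*, *Gm16063* and *Gm49108*, with 250, 220, 194, 194 and 156 fragments outside and upper ends of the interval between 0.189 and 0.304.

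Single peaks were compared by transposase cuts, scaled to all cuts at peaks of the set, and not by fragments scaled to all fragments. The share of fragments at peaks was lower in low-cycling germ nuclei, as described below. Ratios of peaks over the outside barcodes therefore stand higher than they would on the promoter scale. Both ends of 1 fragment can count as cuts, so the exact intervals of all peaks named may be too narrow. Of 65099 peaks with at least 100 cuts over both sets, 5497 had none in low-cycling germ nuclei. The highest ratio of cuts was 33.9 (22.5 to 51.9) at chromosome 7, 120409180 to 120410080 (GRCm38), over the start of *Abca16*, with 75 cuts in low-cycling germ nuclei against 36 outside. The next, at 30.3 and 29.8, lay on chromosome 17 at 37995342 to 37996381, in no annotated gene, and at 23244822 to 23245738, in an intron of the pseudogene *Vmn2r-ps133*. The 3 lowest, at 0 cuts in low-cycling germ nuclei, were on chromosome 2 (110192253 to 110193112, 853 cuts outside), chromosome 11 (8799372 to 8800239, 718 cuts) and chromosome 12 (31154335 to 31155209, 711 cuts), at 121448, 134837 and 80474 bp from the nearest start of a protein-coding gene (*Bbox1*, *Tns3* and *Fam110c*). The peak on chromosome 12 overlapped an exon of *Gm48112* and the other two no gene.

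Whole nuclei also differed in the makeup of their fragments. The median share of fragments at peaks was 31.4% in low-cycling germ nuclei (range 17.9% to 45.0%), 31.7% in cycling germ nuclei and 39.3% in the outside barcodes. Short fragments, under the length of DNA wound on 1 nucleosome, made up 47.8%, 48.5% and 59.2%. Chromosome X took 2.22%, 2.10% and 2.0% of fragments. The medians of the germ sets were close to each other and apart from the outside barcodes for the share at peaks and for short fragments, but not for chromosome X, where the outside quartiles (1.75% to 2.29%) covered both germ medians. The share within 1 kb of a gene start had medians of 29.2%, 30.2% and 30.8% in the same order. Peaks were called over all nuclei together, and germ nuclei are 6.01% (low-cycling) of those kept. The part of this in the lower share at peaks was not tested.

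Within the low-cycling germ nuclei the share of fragments at peaks had 2 modes, with the fewest nuclei between them at 27% to 28% (13, against 43 at 25% to 26% and 45 at 35% to 36%). The split at 29%, chosen after the values were seen, lies above that bin. The 180 nuclei under 29% had a median of 25.5% of fragments at peaks and the 270 nuclei over it 34.5%. The first had more fragments (median 6939 against 5264), more short fragments (52.3% against 43.2%), a lower share near gene starts (25.7% against 31.6%) and a higher share on chromosome X (2.36% against 2.12%). The levels of *Piwil4* (165 CPM, 149.99 to 180, and 161 CPM, 149 to 173) and *Tdrd9* (252 and 253 CPM) had overlapping intervals on both sides. *Ddx4* stood at 587 CPM (559 to 616) and 544 CPM (522 to 565), intervals that overlapped only at their ends. The median share of UMIs in the germ genes of the rule was 0.751% under and 0.694% over the split. RNA of some other cells moved with the split. Interstitial markers summed to 103 CPM under and 178 CPM over it, erythroid markers to 62.4 and 199 CPM, and Scrublet marked 4.44% and 18.1%. *Robo2* (86.6 and 442 CPM), *Slit2* (119 and 424 CPM) and *Meg3* (51.0 and 140.1 CPM) were higher over the split as well, the first and second named after their values were seen. Leydig markers (209.6 and 220.3 CPM) and Sertoli markers (49.2 and 54.7 CPM) had overlapping intervals. Without the Scrublet barcodes, 172 and 221 nuclei remained, with interstitial markers at 72.7 CPM (62.7 to 83.8) and 88.9 CPM (79.2 to 99.5), erythroid markers at 60.8 CPM (51.7 to 71.1) and 79.3 CPM (70.1 to 89.3), and *Robo2* at 44.0 CPM (36.3 to 52.8) and 47.6 CPM (40.5 to 55.5). *Slit2* then stood at 60.1 CPM (51.04 to 70.2) and 65.5 CPM (57.2 to 74.6). *Meg3* then stood at 33.3 CPM (26.7 to 41.1) under and 27.3 CPM (22.04 to 33.4) over the split, the other direction. The intervals of *Robo2*, *Slit2* and *Meg3* each overlapped between the sides without the Scrublet barcodes. The medians at peaks without these barcodes were still 25.4% and 34.4%. Of the cycling germ nuclei, 81 (32.4%) lay under 29%.

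**Figure D3:**
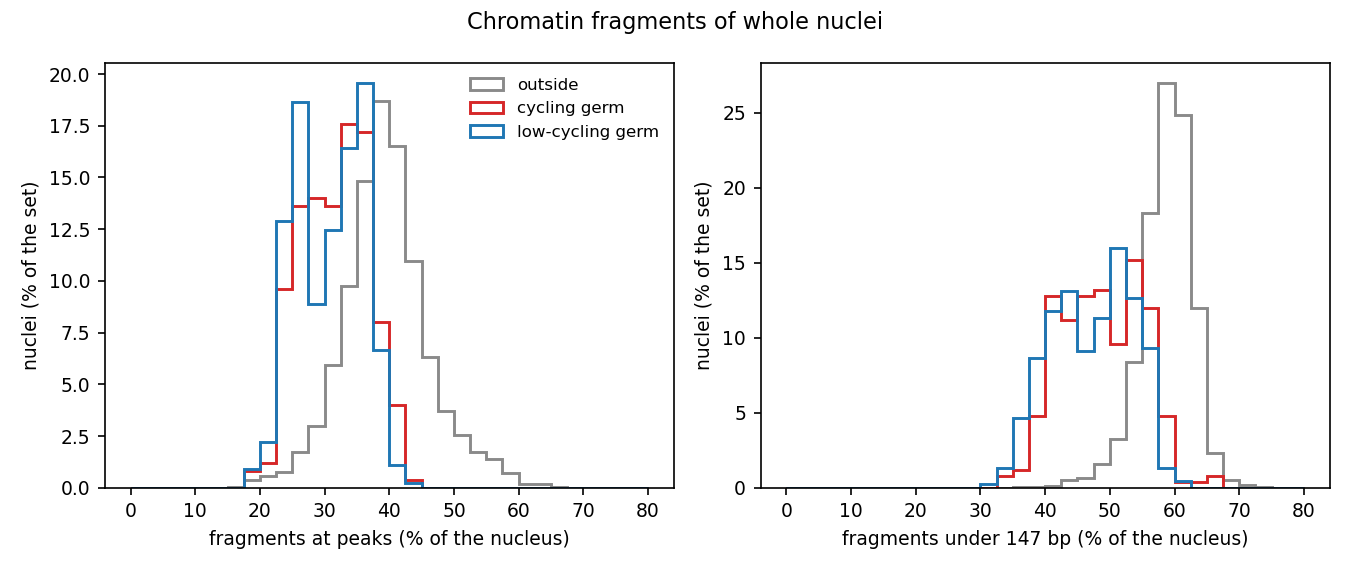
Distribution over nuclei of the share of ATAC fragments at peaks (left) and of the share of short fragments, under the length of DNA on 1 nucleosome (right), in bins of 2.5 percentage points, as % of the nuclei of each set. Both germ sets lie to the left of the outside barcodes (median at peaks 31.4% in low-cycling germ nuclei against 39.3%), and low-cycling germ nuclei show 2 modes in the left panel.

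In RNA, the contrast with the outside barcodes was the one the rule used, and its values describe what the chosen nuclei contain. Of 19272 genes with at least 20 UMIs over both sets, 15.9% were more than 2-fold higher and 18.5% more than 2-fold lower in low-cycling germ nuclei, on the log2 scale of CPM + 1. The piRNA list had 19 of 20 genes higher and none lower, the pluripotency list 13 of 13 higher, the meiosis list 20 of 27 higher and none lower, and the list of male germ fate and RNA-binding genes 12 of 16 higher and 1 lower. *Nanos2*, an RNA-binding factor of the male germ cell fate, stood at 6.11 CPM (4.46 to 8.18), 6.03 CPM and 0.605 CPM in low-cycling, cycling and outside nuclei. *Kit*, the receptor of stem cell factor, was the gene below, at 13.7 CPM against 48.7 CPM outside. Of 24 imprinted genes, 17 were lower and 2 higher, and *Meg3*, a maternally expressed noncoding RNA, stood at 106 CPM against 1085 CPM, a log2 ratio of -3.34 that went to -5.21 (-5.43 to -5.01) without the Scrublet barcodes.

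Outside the lists, the 8 highest ratios over the outside barcodes were held by 4 lincRNA genes (*Gm44748*, *8030455M16Rik*, *Gm47782* and *Gm43049*), the noncoding *A230004M16Rik*, and the protein-coding *Pkhd1*, *Gm884* and *Cox7b2*, between 20.01 and 22.1. *Gm47782*, on chromosome 14, stood at 246 CPM, 88.4 CPM and 11.9 CPM in low-cycling, cycling and outside nuclei, and *Gm884* at 322, 137 and 15.98 CPM. These outside levels and ratios include the germ RNA left outside. In the 5992 outside barcodes with the lowest germ share, *Gm47782* stood at 0.532 CPM and *Gm884* at 0.745 CPM. Over that set the 8 ratios were between 87.7 (*Cox7b2*) and 1265 (*Gm43049*), in another order. The 8 lowest were *Lrrtm4*, *Adamts16*, *Mageb18*, *C1qtnf7*, *Mro*, *Hsd17b3*, *Kif26b* and *Gm14226*, with ratios from 0.0392 to 0.0508. *Hsd17b3*, which makes testosterone from androstenedione, stood at 6.93 CPM against 144 CPM outside.

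The comparison with cycling germ nuclei addressed what else differed among germ nuclei once the cell cycle genes had ranked them. Of 14260 genes with at least 20 UMIs over both germ sets, 11.8% were more than 1.5-fold higher and 7.17% more than 1.5-fold lower in low-cycling germ nuclei. Genes of S phase and of G2M that the rule did not use followed those it did, with 26 of 43 and 30 of 48 lower and none higher (median log2 ratios -0.73 and -0.74). *Ccnb1*, the cyclin of entry into mitosis, stood at 9.10 CPM against 32.7 CPM (ratio 0.279, 0.204 to 0.377), and *Wee1*, a kinase that holds CDK1 inactive and one of the 8 lowest genes outside the lists, at 13.3 CPM against 68.6 CPM (0.194, 0.153 to 0.245). Of 12 cyclins and CDKs, 6 were lower and none higher. The sum of the 5 erythroid markers was also lower, at 146.8 CPM against 280 CPM, with 4 of them past 1.5-fold lower and *Hbb-y* (22 and 5 UMIs) at a ratio of 2.38 (0.879 to 8.04). The sums were 71.3 and 69.9 CPM without the Scrublet barcodes. Promoters of the cell cycle lists were mostly within 1.5-fold, with 1 of 43 S phase and 2 of 50 G2M promoters lower and 1 of the 50 higher, where 6.09% of 15744 promoters were higher and 6.46% lower.

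Genes that keep cells out of the cycle were not generally higher than in cycling germ nuclei. Of 9 CDK inhibitors and RB family genes, 2 were higher and 1 lower, where 11.8% of all genes were higher and 7.17% lower. Summed over all 10 listed, they stood at 561 CPM in low-cycling and 631 CPM in cycling germ nuclei, against 277 CPM outside. Past 2-fold against the outside barcodes, 3 of 10 were higher and 3 lower, where 15.9% and 18.5% of all genes were. *Cdkn2b* (p15) stood at 6.39 CPM against 3.01 CPM in cycling germ nuclei (ratio 2.12, 1.11 to 4.39) and *Cdkn2d* (p19) at 2.58 CPM against 1.005 CPM, with an interval that included 1 (0.854 to 10.4). *Cdkn1a* (p21) was the one lower, at 1.77 CPM against 4.02 CPM (0.439, 0.194 to 0.974). *Cdkn1b* (p27) stood at 0.755 (0.524 to 1.10) and *Rb1* at 0.897 (0.846 to 0.950).

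Part of the piRNA pathway was higher in low-cycling than in cycling germ nuclei. Of 19 genes, 5 were more than 1.5-fold higher and none lower, where 11.8% of all genes were higher and 7.17% lower. *Piwil4* (chromosome 9, 14696230 to 14740733) stood at 162 CPM (153 to 172) against 82.4 CPM (73.7 to 91.8), a ratio of 1.97 (1.74 to 2.23). *Tdrd9* (chromosome 12, 111971559 to 112068854), which acts with PIWIL4, stood at 253 CPM against 109 CPM (2.33, 2.10 to 2.59), and *Gtsf1*, a cofactor of PIWI proteins, at 102 CPM against 50.5 CPM (2.03, 1.73 to 2.38). *Spocd1* (chromosome 4, 129929249 to 129957115), which links PIWIL4 to DNA methylation, had the highest ratio, 3.72 (2.80 to 5.03), at 51.4 CPM against 13.8 CPM. *Henmt1*, which methylates the ends of piRNAs, was higher on 57 and 10 UMIs (3.08, 1.56 to 6.77). The remaining 14 lay between 0.903 (*Tdrd5*) and 1.36 (*Tex15*), among them *Piwil2* at 1.23 (1.12 to 1.34), *Asz1* at 1.13 and *Mov10l1* at 1.04. In promoters, 4 of 19 piRNA genes were more open in low-cycling germ nuclei and none less, where 6.09% of all promoters were higher and 6.46% lower. *Spocd1* had 29 and 8 fragments, a ratio of 2.12 (0.944 to 5.36). Of the 19 intervals, 1 lay above 1.

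DNA methylation genes went in both directions. Of 10, 3 were higher and 3 lower than in cycling germ nuclei, where 11.8% of all genes were higher and 7.17% lower. *Dnmt3l*, the cofactor of de novo methylation, had 30 UMIs in low-cycling and 3 in cycling germ nuclei (ratio 5.41, 1.68 to 27.7), and *Dnmt3c*, the methyltransferase of young retrotransposons, 45 and 10 (2.43, 1.21 to 5.42). *Tet3* stood at 38.5 CPM against 20.1 CPM (1.91, 1.49 to 2.48). The maintenance genes *Dnmt1* (20.8 against 42.7 CPM, ratio 0.487, 0.389 to 0.609) and *Uhrf1* (6.25 against 17.6 CPM, 0.355, 0.240 to 0.523), both linked to DNA replication, were lower, as was *Tet1*, a dioxygenase that oxidises methylcytosine (257 against 469 CPM, 0.547, 0.513 to 0.584). *Dnmt3a* stood at 1.26 (1.07 to 1.48) and *Dnmt3b* at 0.932 (0.579 to 1.53). None of the 9 promoters measured was past 1.5-fold between the germ sets.

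Pluripotency and early germ cell genes were mostly level or lower. Of 13 pluripotency genes none was higher and 3 were lower. *Esrrb* stood at 29.8 CPM against 63.8 CPM (0.466, 0.387 to 0.561), *Utf1* at 0.617 and *Sall4* at 0.648, whereas *Pou5f1* was at 0.950 (0.749 to 1.21), *Dppa4* at 0.981 and *Tfcp2l1* at 1.44 (1.22 to 1.70). Summed over all 14 genes, the list stood at 1011 CPM and 1008 CPM. To this sum *Lin28b* gave 3875 of 7442 UMIs in low-cycling germ nuclei. The median log2 ratio was -0.36, and -0.08 after thinning. The medians of the lower and upper ends of the single-gene intervals were -0.74 and 0.10, which is not an interval of the median itself. Of 16 male germ fate and RNA-binding genes 2 were higher, *Ddx25* (1.85) and *Tex101* (2.27), a share near the 11.8% of all genes, and 5 were lower, where 7.17% of all genes were. *Prdm1* (BLIMP1), a repressor that specifies germ cells, stood at 81.8 CPM against 136 CPM (0.603, 0.536 to 0.678), *Prdm14* at 5.44 against 16.8 CPM (0.323, 0.213 to 0.485), *Kit* at 0.408, *Rbm44* at 0.379 and *Ifitm3* at 0.482. *Nanos2* had a ratio of 1.01 (0.605 to 1.74).

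Growth factor genes with ratios past 1.5-fold were all lower in low-cycling germ nuclei, 5 of 11, where 7.17% of all genes were lower and 11.8% higher. Of the 11 intervals, 6 lay below 1 and 1 above. Among the 5 were *Lefty1* (14 and 27 UMIs, ratio 0.280) and *Lefty2* (28 and 42 UMIs, 0.361), secreted antagonists of Nodal. *Etv4* (0.248) and *Etv5* (61.7 against 129 CPM, 0.478, 0.420 to 0.543), ETS factors downstream of FGF and GDNF, were also lower, and *Etv1*, outside the lists, stood at 0.292 (0.240 to 0.356). *Nodal* itself had 21 and 16 UMIs (0.710, 0.353 to 1.46), and *Ret* and *Fgfr1* were at 0.952 and 0.988.

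Of 27 meiosis genes, 4 were higher and 9 lower, where 11.8% of all genes measured were higher and 7.17% lower, so that the share higher was near that of all genes. *Spata22* (108 and 13 UMIs, ratio 4.49, 2.52 to 8.71), *Syce3* (2.06), *Rad21l* (1.96, 1.401 to 2.79) and *Mei4* (1.52, 1.39 to 1.66) were higher. *Smc1b*, a meiotic cohesin, stood at 82.8 CPM against 224 CPM (0.369, 0.333 to 0.410), *Tex11* at 164 against 325 CPM (0.505), *Hormad1* at 0.570 and *Dmc1* at 0.553. *Stra8*, the gene that starts meiosis, had 4 and 10 UMIs. *Sycp2* (1.30) and *Sycp3* (1.46), further genes of the chromosome axis, did not pass 1.5-fold.

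**Figure D4:**
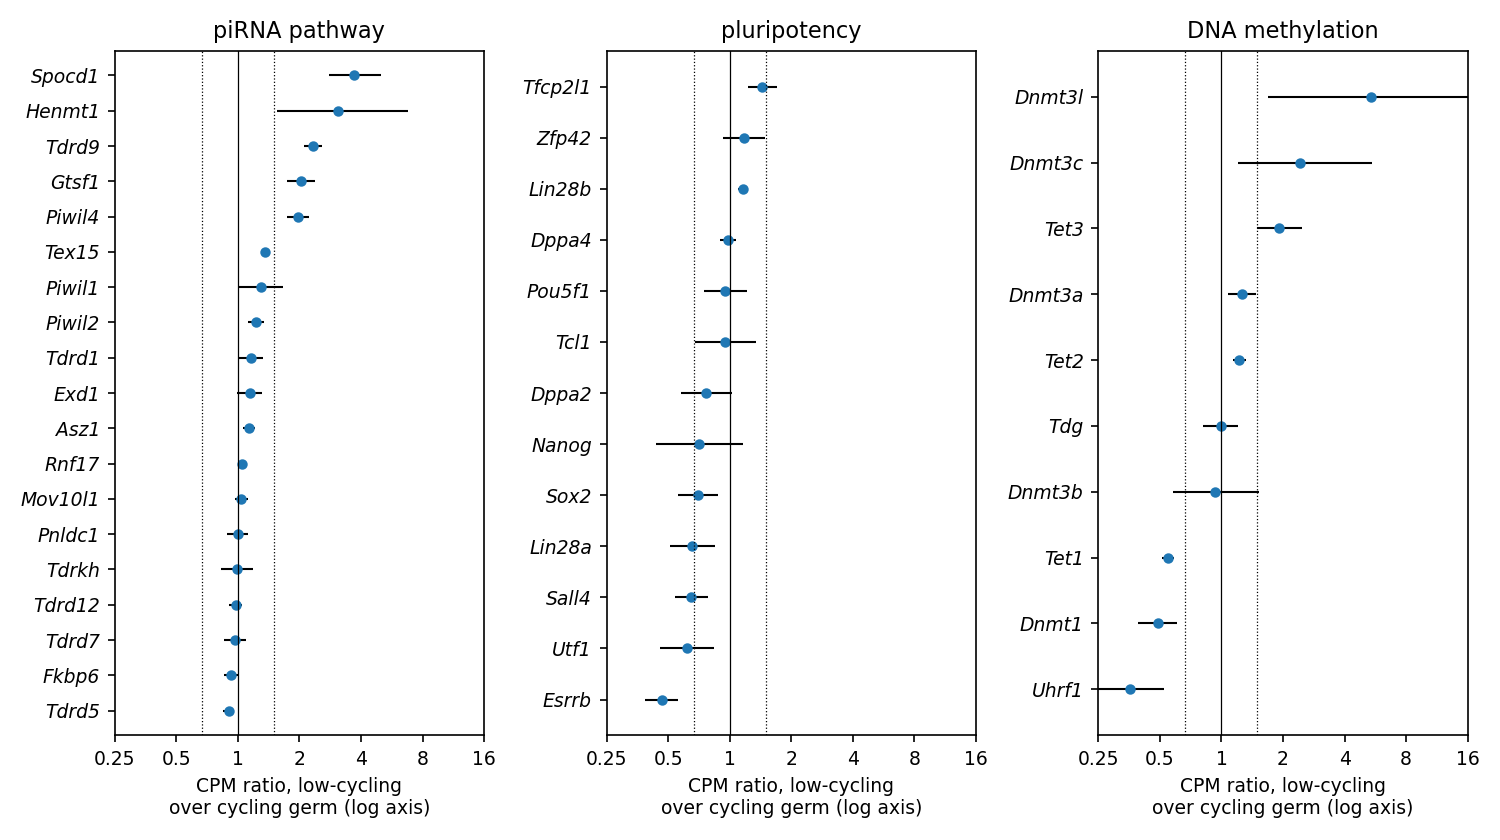
Ratio of CPM in low-cycling over cycling germ nuclei (horizontal log axis) for genes of 3 lists with at least 20 UMIs over both sets, with exact conditional binomial 95% intervals. Solid lines mark 1 and dotted lines the 1.5-fold limits, intervals that run past the axis stop at its edge, and *Spocd1* (3.72), *Esrrb* (0.466) and *Uhrf1* (0.355) lie beyond them.

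Some of these differences ran along much of the rank and others lay mainly in the upper cycling nuclei. The members were divided by cell cycle share into 150 lowest, 150 middle and 150 highest nuclei, and the cycling germ nuclei into a lower and an upper group of equal size. *Tdrd9* stood at 305, 244, 211, 158 and 66.6 CPM along this order. *Spocd1* stood at 71.6, 40.2, 42.9, 21.5 and 7.40 CPM and *Piwil4* at 174, 153, 160, 114 and 56.0 CPM, where the intervals of the 3 groups of members overlapped for *Piwil4*. *Tet1* went the other way, at 201, 283, 285, 391 and 534 CPM, and *Prdm1* at 59.1, 83.2, 102, 119 and 149 CPM. Between the middle and the highest members, the intervals overlapped for each of *Tdrd9*, *Spocd1*, *Piwil4*, *Tet1* and *Prdm1*. Median depth was similar, between 14005 and 15561 UMIs in all 5 groups. The S phase and G2M genes together stood at 5871, 6024 and 6333 CPM over the members, at 6385 CPM in the lower cycling group and at 11592 CPM in the upper one, beside 6286 CPM in the outside barcodes. The cycling nuclei just above the cut were thus within 1.5-fold of the members in this sum, and the excess of cell cycle RNA lay mostly in the upper group. *Kit* and *Smc1b* behaved likewise, at 16.5 and 93.5 CPM in the lower cycling group and 48.1 and 334 CPM in the upper one. *Dnmt1* stood at 19.97, 22.7, 19.7, 24.2 and 58.3 CPM over the 5 groups and *Rbm44* at 39.9, 39.0, 34.9, 29.2 and 159.6 CPM, so that the upper cycling group stood above the other 4.

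**Figure D5:**
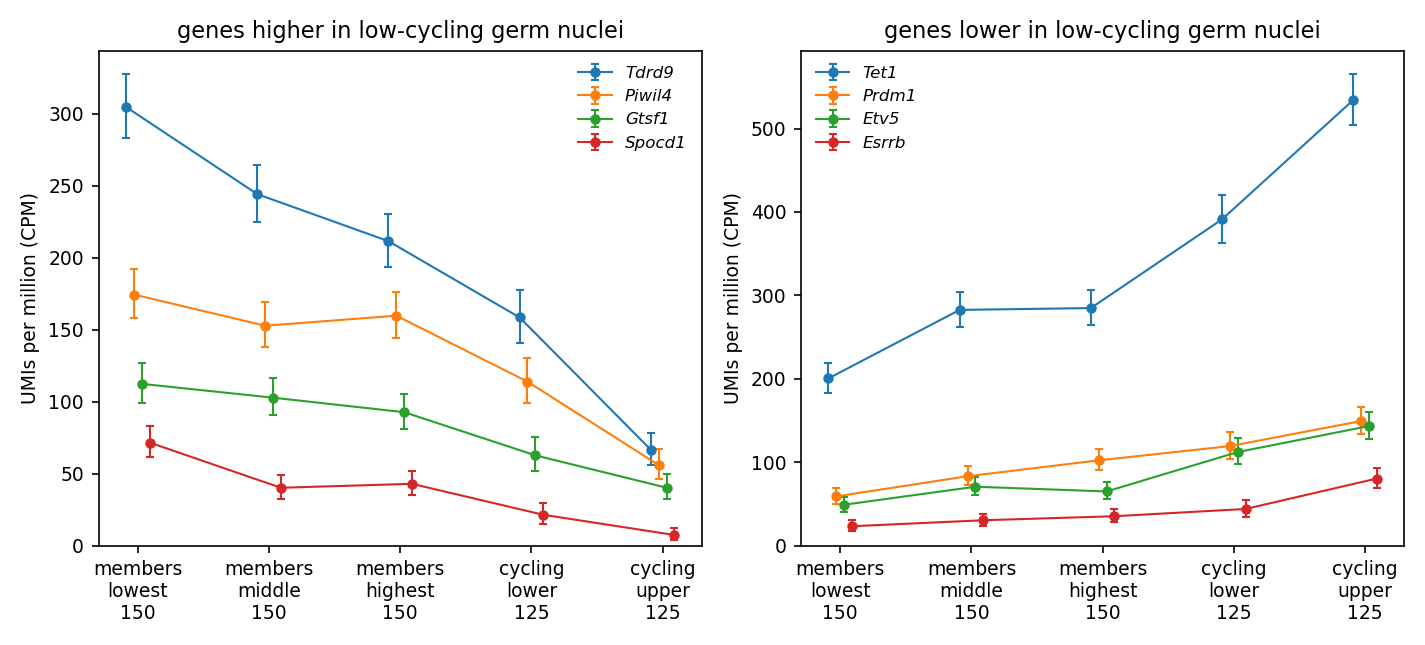
CPM of 4 genes higher (left) and 4 genes lower (right) in low-cycling germ nuclei, in 3 groups of 150 members and 2 equal groups of cycling germ nuclei in order of the share of UMIs in the 7 cell cycle genes, with exact Poisson 95% intervals. *Tdrd9* goes from 305 CPM to 66.6 CPM and *Tet1* from 201 CPM to 534 CPM across the 5 groups.

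Genes of repressive chromatin were compared next. Of 15 genes of H3K9 methylation, Polycomb and PRC1.6, 4 were more than 2-fold higher than in the outside barcodes and 1 lower (log2 ratio -1.19). Over all genes measured, 15.9% were higher and 18.5% lower. The 4 of the list were *Suv39h2*, an H3K9 methyltransferase (56.5 against 15.1 CPM), and *Max*, *Mga* and *Pcgf6* of the PRC1.6 complex (ratios 3.70, 2.64 and 2.73). Against cycling germ nuclei none was past 1.5-fold higher and only *Ezh2*, the Polycomb methyltransferase, was lower (141 against 241 CPM, 0.583, 0.534 to 0.637). Of the 15 intervals, 4 lay below 1 (*Ezh2*, *Trim28* at 0.702, *Suz12* at 0.817 and *Pcgf6* at 0.857) and none above.

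Imprinted genes were counted separately. Of 22, 6 were higher in low-cycling than in cycling germ nuclei and 3 lower, where 11.8% of all genes were higher and 7.17% lower. Summed over all 25 listed, they stood at 1185 against 1069 CPM, and at 812 against 859 CPM without the Scrublet barcodes. *Grb10*, a growth inhibitor, stood at 67.4 against 33.4 CPM (2.02, 1.66 to 2.46) and *Rian* at 109 against 60.8 CPM (1.79, 1.55 to 2.08). *Meg3* stood at 106 against 72.1 CPM (1.47, 1.28 to 1.69), not past 1.5-fold but with log2 ratios from 0.04 to 1.24 over 9 alternatives. *Snrpn* (0.607) and *Usp29* (0.564) were lower. All 5 interstitial markers had ratios above 1 (median log2 ratio 0.43) and none was past 1.5-fold, while Sertoli and Leydig markers had medians of -0.03 and 0.05. The Leydig marker *Nr5a1* was past 1.5-fold higher (9.51 against 3.27 CPM, ratio 2.91, 1.597 to 5.74). The 6 Leydig markers summed to 216 against 207 CPM, and to 167 against 180 CPM without the Scrublet barcodes. In nuclei in the lower part of the interstitial marker share, split at its median in each germ set and chosen after the values were seen, the log2 ratio was 1.14 (0.70 to 1.61) for *Rian*, 1.24 (0.71 to 1.81) for *Meg3* and 0.51 (-0.02 to 1.08) for *Grb10*, which was then within 1.5-fold with an interval that included 0. Without the Scrublet barcodes the log2 ratios were 0.76 (0.43 to 1.10) for *Rian* and 0.91 (0.48 to 1.37) for *Grb10*, with interstitial markers at 81.9 and 70.2 CPM. The part of other cells' RNA in these differences was not tested.

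Among the genes outside the lists with the highest ratios over cycling germ nuclei were *Ncam2* (4.42), *Tenm2* (3.05), *Cntn6* (2.97), *Ptprq* (2.89), *Gm15398* (2.86), *Vwf* (2.83) and *Gm47782* (2.78). *Vwf*, von Willebrand factor, is an endothelial gene and stood at 71.9 CPM against 25.4 CPM in cycling germ nuclei and 12.3 CPM outside. The 4 endothelial markers summed to 31.7, 19.09 and 105 CPM in the same order. Of the 4, 2 were more than 1.5-fold higher than in cycling germ nuclei. Without Scrublet barcodes the sums of the germ sets were 31.7 and 17.3 CPM. The part of endothelial RNA in the level of *Vwf* was not tested. *Ncam2*, a neural cell adhesion molecule, stood at 53.3 CPM against 12.1 CPM and 15.7 CPM outside. *Tenm2* (69.8 CPM, and 63.3 CPM outside) and *Cntn6* (70.3 CPM, and 91.3 CPM outside) had outside levels near or above those of low-cycling germ nuclei. Among the lowest, besides *Wee1* and *Etv1*, were *Gm42047* (0.194), *Pvt1* (0.356), *Ccnf*, a cyclin of G2 (0.365), and *Hlf* (0.366). Among 11055 promoters with at least 50 fragments over both germ sets, *Calcr*, *Twist2*, *Pou3f3*, *Pcsk5* and *Igfbp7* stood highest (ratios 2.43 to 3.06) and *2810454H06Rik*, *Igsf9*, *Gm29538*, *Ndufb2* and *Gm15444* lowest (0.412 to 0.438). The start range of *Calcr*, the highest, spans 11741 bp, so its count covers that whole range and not the surroundings of a single start. The highest peaks overlapped an exon and the start of *Serinc3* on chromosome 2 (163644649 to 163645519; 88 and 15 cuts, ratio 3.55, 2.04 to 6.60), of *Pcsk5* on chromosome 19 (3.17) and of *Ppm1h* on chromosome 10 (2.95). The lowest were on chromosome 6 over an exon of *Gm44023*, 16324 bp from the start of *Egr4* (0.380), and at *Gpr19* (0.389), and on chromosome 12 at *Dpf3* (0.390).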

How the data were processed

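The authors processed 1 RNA and 1 ATAC library of E14.5 testis nuclei with Cell Ranger ARC 2.0.1 on mm10 (GRCm38). They deposited raw counts, UMIs for each gene and transposase cuts for each peak of 1 common peak set, and, per the file headers, a list of 58448458 unique fragments with the count of read pairs behind each (1.09 on average), none of them normalized. The doublet caller, ambient RNA correction and blacklist filter of the study were not used here. UMIs were summed per set and given per 1000000, fragments within 1 kb of the start range of the feature table were counted once each, and ratios got exact conditional binomial 95% intervals (Python 3.11.15, numpy 2.4.6, scipy 1.17.1, pandas 2.3.3). Log2 ratios used a pseudocount of 1. Scrublet ran in scanpy 1.11.5. The calculation was tested on simulated data. Gene positions came from GENCODE vM21 and promoter letters from RefSeq.

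The members and gene lists were chosen with earlier results of these data known. Named were list members and, outside the lists, the 8 highest and lowest RNA ratios with at least 100 UMIs over both sets and 50 CPM in the higher one, 5 promoters (at least 50 fragments) and 3 peaks (at least 100 cuts) per direction. Ties at 0 were ordered by the upper end of the interval. Start ranges exceeded 2000 bp for 14.01% of genes. Antisense and overlapping genes may share fragments. Some genes that this rule names are not reported here. The alternatives tried are in the closing section.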

Additional observations from a re-analysis of the deposited data

How the results depend on the processing

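No paired analysis was possible because each assay has 1 library and no result comes from a test. A total of 58 of 70 recomputed summaries and 160 of 202 single-gene values stayed within set limits, and none changed direction. For single genes the limits were the counting interval of the value reported, and for counts of genes 1.5 times. For list medians they were the medians of the single-gene interval ends, so a median could move and still count as within. The pluripotency median over the cycling set (-0.36) counted as within at -0.08 after thinning. The median RNA log2 ratio of piRNA genes over the outside barcodes (3.41) was 3.22 with 600 germ nuclei and fewer members, 4.39 without Scrublet barcodes, 5.18 against the 5992 outside barcodes of lowest germ share, 3.21 with a pseudocount of 5 CPM and 4.17 with nuclei thinned to 2000 UMIs. For these and the counts below the cause was not tested. The count of genes more than 2-fold higher than outside (3059) was 1745 with a pseudocount of 5 CPM. The count more than 1.5-fold higher than in cycling germ nuclei (1680) was 767 with that pseudocount, 753 with a minimum of 100 UMIs, 2662 with no minimum and 999 after thinning. Counted as cuts in peaks within 1 kb, the median promoter log2 ratio over the outside barcodes was 2.57 for piRNA genes (reported 2.03) and 3.22 for the germ genes of the rule (2.35), and *Piwil4* had no peak there and gave no value. With the lowest 350 as members, the log2 ratio over the cycling set was 0.76 for *Piwil4* (0.97; 0.64 after thinning) and 1.30 for *Spocd1* (1.82). For *Meg3* (0.55) it ran from 0.04 with 600 germ nuclei and fewer members to 1.24 in the lower interstitial share. Chosen after seeing the data were the limit of 2 kb on start ranges, the split by interstitial markers and the split at 29% of fragments at peaks. *Stra8*, *Dnmt3l*, *Henmt1* and *Nodal* rest on few UMIs, and the leading promoter ratios on fewer than 100 fragments per set.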
